A study of Oryctolagus cuniculus with 24 samples.

Results

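The genes described here are those of the tumour necrosis factor (TNF) superfamily and its NF-κB branch in cultured rabbit corneal keratocytes. A rule on gene names defined them, chosen with earlier results of these data known. It took every row of the deposited count table whose gene name begins with TNFSF (ligands), TNFRSF (receptors) or TNFAIP (TNF-alpha-induced proteins). It also took any of 13 further names of ligands, receptors, adaptors and NF-κB proteins. The rule found 40 of the 23428 genes in the table, namely 12 ligands, 15 receptors, 3 adaptors, 4 NF-κB or IκB genes and 6 TNFAIP genes. TRAF2 and RELA, also named by the rule, matched no row of the count table under these names, so neither was analysed here. Of the 40 genes, 26 had enough counts to be tested, among 13308 genes tested in all, and the other 14 are given by their counts.

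Ligands of the TNF superfamily are membrane-bound or shed trimers that bind receptors on neighbouring cells. Some receptors carry a death domain, through which they can start apoptosis, and others recruit TRAF adaptors and the IAP ubiquitin ligases, which switch on NF-κB once an IκB protein such as the product of NFKBIA is degraded. Decoy receptors such as osteoprotegerin bind a ligand without signalling. In the injured cornea, cytokines and Fas ligand of the damaged epithelium are known to act on the keratocytes of the stroma beneath.

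RNA was sequenced in bulk from primary keratocytes at the first passage, plated on collagen-coated glass and kept for 6 days, with 8 libraries in each of 3 conditions. The TGF-β1 libraries came from cells in defined serum-free medium with 5 ng/mL of this growth factor added at the medium changes of day 1 and day 3, which the labels call myofibroblasts. The FBS libraries came from cells kept in serum-free medium until day 3 and then in DMEM with 10% fetal bovine serum, called fibroblasts. The serum-free libraries had the defined medium throughout, called keratocytes. Serum, base medium and days of exposure therefore cannot be told apart in the FBS condition. Strain, age and sex are not in the labels, and no label ties a replicate to an animal or a culture, so p-values measure only the spread between these libraries, which may be technical. In bulk RNA, fewer cells of a type and less RNA per cell cannot be told apart.

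Total counts per library were 15410285 to 20911192 with TGF-β1, 15659561 to 22528261 with FBS and 17151397 to 21540864 in serum-free medium. The first and second principal components (60.6% and 25.1% of the variance) separated the conditions, and the third (5.92%) separated replicates 1 to 4 from replicates 5 to 8 within each. FBS replicates 5 and 6 also stood apart from FBS replicates 7 and 8, with a squared difference over counting variance of 44.7 to 72.3 per gene, against 3.01 between replicates 7 and 8. Summed levels of 6 keratocyte markers were 8320 to 14200 CPM (counts scaled to library size) with TGF-β1, 1060 to 2260 CPM with FBS and 40600 to 67600 CPM in serum-free medium. All 6 were called lower with FBS, and 5 were called lower with TGF-β1, where AQP1 was called higher. The sum of 5 myofibroblast and fibroblast markers was 5170 to 8490 CPM with TGF-β1, 7390 to 9150 CPM with FBS and 1830 to 2620 CPM in serum-free medium. VIM led it, averaging 3554 ± 534, 7217 ± 747 and 2219 ± 241 CPM in the same order (mean ± SD). POSTN averaged 2460 ± 795, 50.1 ± 11.3 and 24.8 ± 11.6 CPM. Both were called higher with both treatments, as were ACTA2 and TAGLN, and THY1 was called lower with both. For 14 leukocyte markers the sums were 6.64 to 10.4 CPM with TGF-β1, 15.6 to 29.5 CPM with FBS and 3.97 to 6.70 CPM in serum-free medium. The macrophage gene CD68 led that sum, at 6.63 ± 0.993 CPM with TGF-β1, 18.3 ± 5.98 CPM with FBS and 2.35 ± 0.874 CPM in serum-free medium (mean ± SD), and MRC1, also of macrophages, averaged 0.191 ± 0.198, 2.86 ± 0.941 and 0.127 ± 0.119 CPM in the same order. Of the 4 leukocyte markers tested, 1 rose with TGF-β1 and 2 rose with FBS. The pan-leukocyte gene PTPRC averaged at most 0.147 ± 0.130 CPM, in serum-free medium, where the T-cell genes CD3E and CD3D had no count; CD3E averaged 0.173 ± 0.188 CPM with TGF-β1. Summed epithelial markers (7 genes, with KRT12 at 0 in all conditions) were 0.585 to 2.60 CPM with TGF-β1, 3.04 to 5.86 CPM with FBS and 0.281 to 1.27 CPM in serum-free medium. TP63, the 1 of them tested, led that sum and was called higher with both treatments. It averaged 1.255 ± 0.792, 4.49 ± 1.06 and 0.327 ± 0.164 CPM in the same order. KRT3, KRT5, CDH1 and PAX6 averaged highest in serum-free medium, at most 0.181 ± 0.168 CPM, and EPCAM had counts only with TGF-β1. The sum of 5 endothelial markers was 52.1 to 113 CPM with TGF-β1, 13.8 to 19.0 CPM with FBS and 246 to 368 CPM in serum-free medium, and KDR led it. The 3 of them tested, KDR, CDH5 and VWF, were called lower with both treatments. CDH5 averaged 6.09 ± 1.86 CPM with TGF-β1, 1.93 ± 0.561 CPM with FBS and 13.1 ± 2.18 CPM in serum-free medium, and PECAM1, not tested, 0.283 ± 0.317, 0.679 ± 0.469 and 0.0652 ± 0.105 CPM. The part of these markers in the results was not tested.

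TGF-β1 against serum-free medium asks what the growth factor changed. The Fn14 gene TNFRSF12A, TNFAIP6, TNFSF4 and FAS rose most, and TNFSF13, TNFRSF1B, TNFRSF11A, TNFRSF8 and TNFRSF19 fell most. Of the 26 members tested, 12 rose and 12 fell at an adjusted p under 0.05 (edgeR's quasi-likelihood test, Benjamini-Hochberg adjustment over all genes), which is 92.3% of the members beside 64.3% of all genes. Each direction held 46.2% of the members, beside 31.2% of all genes called higher and 33.1% called lower. At least 2-fold changes were found in 18 members, or 69.2%, beside 26.1% of all genes. The libraries of TGF-β1 and serum-free medium did not overlap for 17 members (65.4%, beside 33.9% of all genes). The median absolute log2 fold change was 1.25 over the tested members and 0.512 over all genes, and the signed medians were 0.243 and -0.0304.

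FBS against serum-free medium asks what the change to serum and DMEM changed, and it shares its serum-free libraries with the comparison before. FAS, TNFRSF12A, CD40 and BIRC3 rose most, and TNFRSF19, TNFRSF11A and the osteoprotegerin gene TNFRSF11B fell most. Of the 26 members tested, 10 rose and 11 fell, which is 80.8%, close to the 80.0% of all genes called. Higher calls took 38.5% of the members and 39.5% of all genes, and lower calls 42.3% and 40.5%. Changes of at least 2-fold were found in 16 members (61.5%, beside 46.5% of all genes), and 16 members did not overlap between the conditions (61.5%, beside 52.9%). The median absolute log2 fold change was 1.5 over the members and 0.921 over all genes. Without FBS replicates 5 and 6, 19 members were called.

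In TGF-β1 against FBS, TNFRSF11B, TNFAIP6, TNFRSF25 and TNFRSF19 were highest with TGF-β1 relative to FBS, and CD40, FAS, BIRC3 and TNFRSF1B were lowest. Here 12 members were higher and 10 lower with TGF-β1, which is 84.6% beside 73.3% of all genes. Higher calls took 46.2% of the members and 36.9% of all genes, and lower calls 38.5% and 36.4%. At least 2-fold differences were found in 15 members (57.7%, beside 36.1%), and 14 did not overlap (53.8%, beside 46.2%). The median absolute log2 fold change was 1.10 over the members and 0.726 over all genes. Scaling by total counts alone, without TMM, moved the median of all genes by -0.398 and gave 7 members higher and 12 lower.

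**Figure D1:**
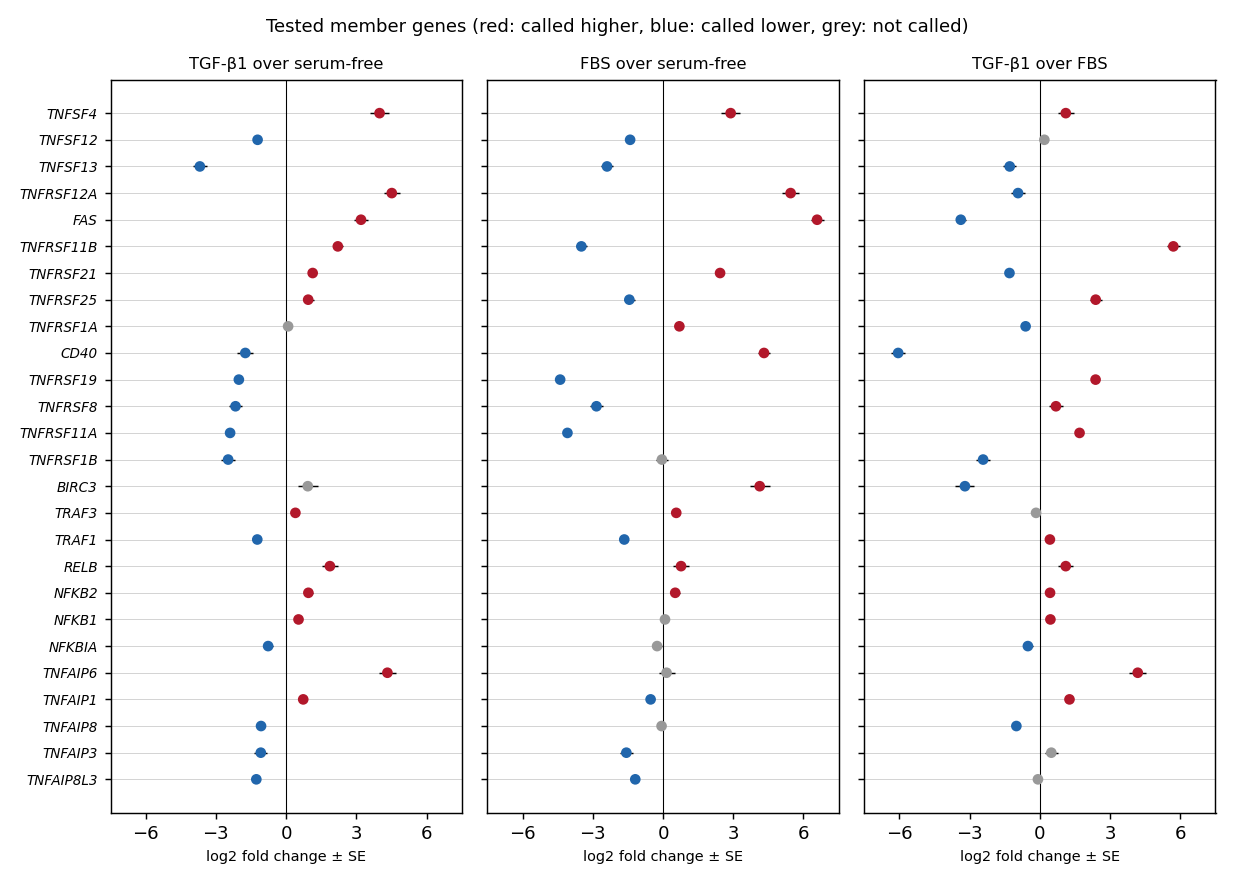
Log2 fold change (x axis) of each of the 26 tested genes (y axis, ordered by role) in the 3 comparisons, TGF-β1 over serum-free, FBS over serum-free and TGF-β1 over FBS. Bars are ± SE, red points were called higher, blue points called lower and grey points not called. TNFRSF11B lies at 2.21, -3.49 and 5.70 across the panels and CD40 at -1.74, 4.32 and -6.06.

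Of the ligands, TNFSF4, TNFSF12 and TNFSF13 had enough counts to be tested: TNFSF4 rose and the other two fell in both treatments. TNFSF4 encodes OX40 ligand, a costimulator of T cells. Its level was 3.94 to 13.7 CPM (median 7.44) with TGF-β1, 1.67 to 6.68 CPM (median 3.46) with FBS and 0.169 to 1.15 CPM (median 0.440) in serum-free medium. Every TGF-β1 and FBS library lay above every serum-free library, and the TGF-β1 and FBS ranges overlapped. The log2 fold change was 3.99 (SE 0.41, adjusted p = 3.20e-09) for TGF-β1 against serum-free medium (4.49 in replicates 1 to 4 and 3.21 in replicates 5 to 8) and 2.89 (SE 0.40, adjusted p = 3.34e-07) for FBS against serum-free medium (3.40 in replicates 1 to 4 and 2.05 in replicates 5 to 8). TGF-β1 against FBS gave 1.10 (SE 0.34, adjusted p = 0.00494), a call that was lost with total-count scaling (adjusted p = 0.0623). TNFSF4 lies on chromosome 13 at 702363 to 716883, minus strand, in the deposited table's coordinates. The genome build, the annotation and the strand setting of the counting were not given in the sources used here.

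TNFSF12 encodes TWEAK, the ligand of the Fn14 receptor, and TNFSF13 encodes APRIL, a survival factor of plasma cells. TNFSF12 was at 9.92 to 14.0 CPM (median 11.2) with TGF-β1, 7.66 to 14.6 CPM (median 9.55) with FBS and 23.2 to 29.8 CPM (median 26.9) in serum-free medium. Serum-free libraries stood above all others, and the TGF-β1 and FBS ranges overlapped. It fell by 1.22 on the log2 scale with TGF-β1 (SE 0.12, adjusted p = 2.95e-09) and by 1.41 with FBS (SE 0.12, adjusted p = 7.12e-11). The difference of TGF-β1 from FBS was 0.19 (SE 0.12, adjusted p = 0.173), with 0.60 in replicates 1 to 4 and -0.22 in replicates 5 to 8; it turned negative with total-count scaling, and without FBS replicate 5 it was called (adjusted p = 0.0306).

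TNFSF13 had the largest fall of the ligands tested. Its level was 0.280 to 1.65 CPM (median 1.14) with TGF-β1, 1.47 to 5.14 CPM (median 2.27) with FBS and 11.7 to 16.6 CPM (median 13.3) in serum-free medium. No TGF-β1 or FBS library reached the lowest serum-free library, and TGF-β1 and FBS overlapped only at the edge, between 1.47 and 1.65 CPM. The log2 fold change was -3.68 (SE 0.29, adjusted p = 1.80e-11) with TGF-β1, -2.39 (SE 0.26, adjusted p = 3.58e-09) with FBS and -1.29 (SE 0.29, adjusted p = 0.000244) for TGF-β1 against FBS. TNFSF13 and TNFSF12 lie 1.12 kb apart on the minus strand of chromosome 19, with TNFSF13 at 11615983 to 11618057, and reads running across that gap could have been counted for either gene.

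TNF itself and FASLG, which encodes Fas ligand, had no count in any of the 24 libraries. With 3 counts as the limit that a count of 0 allows, their levels were at most 0.0240 CPM with TGF-β1, 0.0171 CPM with FBS and 0.0202 CPM in serum-free medium, over the 8 libraries of a condition. These limits, and the intervals that follow, cover counting error only. TNFSF10, the death ligand TRAIL, had 37 counts with TGF-β1, 2 with FBS and 116 in serum-free medium, an FBS to serum-free ratio of 0.0146 (95% interval 0.00175 to 0.0540). TNFSF11, which encodes RANKL, had 0, 2 and 43 counts in the TGF-β1, FBS and serum-free libraries, and was at least 12.1-fold lower with TGF-β1 than in serum-free medium. TNFSF18, the ligand of GITR, had 23 counts with TGF-β1 and none with FBS or in serum-free medium, at least 10.8-fold higher than with FBS and 9.12-fold higher than in serum-free medium. TNFSF18 is the neighbour of TNFSF4, 80.7 kb away on the same strand with no annotated gene between them. TNFSF14, which encodes LIGHT, had 0 counts with TGF-β1, 0 with FBS and 12 in serum-free medium. TNFSF13B, TNFSF15 and TNFSF8 had at most 5 counts in any condition.

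**Figure D2:**
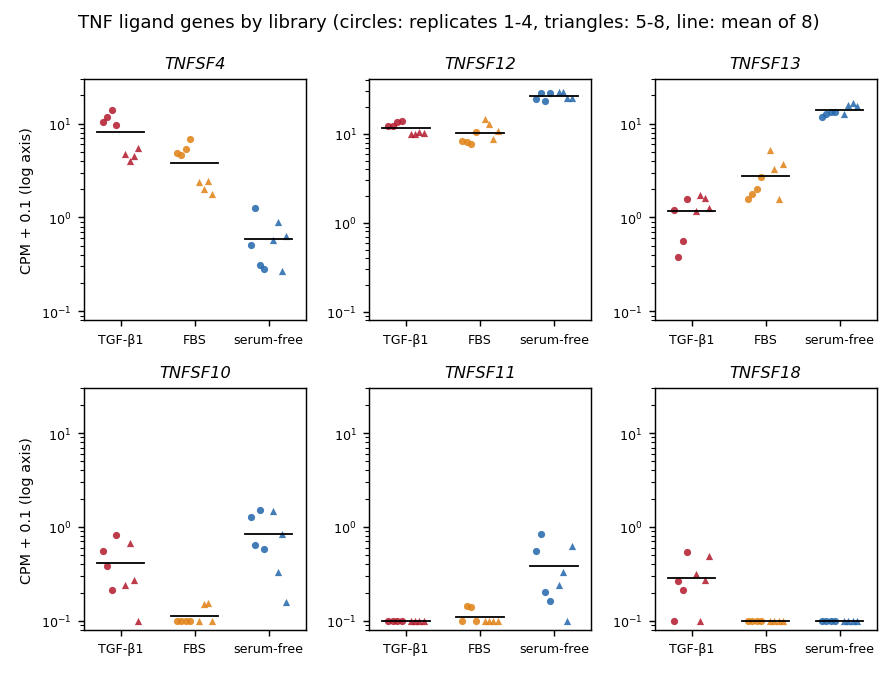
Levels of ligand genes in every library, as CPM + 0.1 on a log axis, by condition in the order TGF-β1, FBS and serum-free; circles are replicates 1 to 4, triangles replicates 5 to 8 and lines the mean of 8. TNFSF4 is at 1.67 CPM or more in all TGF-β1 and FBS libraries, and only the serum-free libraries reach 11.7 CPM of TNFSF13.

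Receptors were more widely expressed, and 11 of 15 were tested. Against serum-free medium 5 rose and 5 fell with TGF-β1, and 5 rose and 5 fell with FBS, beside 64.3% and 80.0% of all genes called in these comparisons. The summed deposited FPKM (fragments scaled to gene length and library size) of the 15 receptors was 210.4 to 324 per library with TGF-β1, 310.4 to 526 with FBS and 108 to 146 in serum-free medium, so serum-free libraries did not overlap the others. TNFRSF12A made up much of it in the TGF-β1 and FBS libraries, at 151 ± 23.9 FPKM with TGF-β1, 286 ± 66.5 FPKM with FBS and 6.52 ± 4.65 FPKM in serum-free medium (mean ± SD, n = 8). Without TNFRSF12A the sums of the other 14 receptors were 110.3 to 156.5 with TGF-β1, 97.11 to 135.2 with FBS and 106.3 to 133.6 in serum-free medium, and all 3 ranges overlapped.

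TNFRSF12A encodes Fn14, the receptor of TWEAK, which recruits TRAF proteins and has no death domain. Its level was 79.6 to 139 CPM (median 124) with TGF-β1, 170 to 319 CPM (median 221) with FBS and 1.22 to 10.2 CPM (median 4.81) in serum-free medium. The 3 conditions did not overlap: FBS was highest and serum-free medium lowest. The log2 fold change was 4.52 (SE 0.34, adjusted p = 8.71e-12) with TGF-β1 (5.86 in replicates 1 to 4 and 3.90 in replicates 5 to 8) and 5.45 (SE 0.35, adjusted p = 1.25e-13) with FBS (6.61 in replicates 1 to 4 and 4.98 in replicates 5 to 8). TGF-β1 against FBS gave -0.94 (SE 0.29, adjusted p = 0.00501). TNFRSF12A, at 267621 to 268661 on the plus strand of the unplaced sequence Un0130, overlaps HCFC1R1 on the other strand. HCFC1R1 averaged 13.1 ± 2.93 CPM with TGF-β1, 46.0 ± 11.2 CPM with FBS and 12.9 ± 3.27 CPM in serum-free medium, and without strand their reads cannot be told apart. Its ligand gene TNFSF12 had fallen in both treatments.

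FAS encodes the Fas death receptor. It was at 3.05 to 5.21 CPM (median 3.59) with TGF-β1, 27.8 to 53.6 CPM (median 41.9) with FBS and 0.0610 to 0.699 CPM (median 0.484) in serum-free medium. The conditions did not overlap, with FBS highest. FAS rose by 3.20 on the log2 scale with TGF-β1 (SE 0.28, adjusted p = 1.62e-10; 3.87 in replicates 1 to 4 and 2.60 in replicates 5 to 8) and by 6.58 with FBS (SE 0.27, adjusted p = 1.44e-17; 7.41 in replicates 1 to 4 and 5.74 in replicates 5 to 8), and it was lower with TGF-β1 than with FBS (log2 fold change -3.38, SE 0.22, adjusted p = 1.78e-13). Serum-free libraries held 63 FAS counts in all. FAS lies at 36906338 to 36936703 on chromosome 18, plus strand, 35.6 kb from ACTA2, the α-smooth muscle actin gene, with no annotated gene between them. ACTA2 averaged 231 ± 125 CPM with TGF-β1, 479 ± 221 CPM with FBS and 2.92 ± 2.10 CPM in serum-free medium, with log2 fold changes of 6.29 and 7.35 for TGF-β1 and FBS against serum-free medium.

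CD40, the receptor through which T cells activate antigen-presenting cells, also signals in fibroblasts. Its level was 0 to 0.345 CPM (median 0.225) with TGF-β1, 9.51 to 17.9 CPM (median 13.7) with FBS and 0.305 to 1.13 CPM (median 0.672) in serum-free medium. All FBS libraries lay far above the rest, and the TGF-β1 and serum-free ranges met between 0.305 and 0.345 CPM. It rose with FBS (log2 fold change 4.32, SE 0.25, adjusted p = 1.70e-14) and fell with TGF-β1 (log2 fold change -1.74, SE 0.35, adjusted p = 9.98e-05), where 25 and 103 counts in all stood in the TGF-β1 and serum-free libraries. For TGF-β1 over FBS it was -6.06 (SE 0.30, adjusted p = 9.09e-16), the largest difference of any member in that comparison. The gene is on the unplaced sequence Un0027 at 1087567 to 1098658, plus strand. Summed leukocyte markers were also highest with FBS, with CD68 and MRC1 highest there too; their part in the CD40 level was not tested. The CD40 ligand gene CD40LG was among the genes with too few counts to test.

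Both TNF receptors were expressed. TNFRSF1A, the death-domain receptor TNFR1, was at 112 to 155 CPM (median 138) with TGF-β1, 167 to 274 CPM (median 194) with FBS and 87.2 to 171 CPM (median 124) in serum-free medium. All TGF-β1 libraries lay below all FBS libraries, and serum-free libraries overlapped both. FBS gave 0.70 (SE 0.14, adjusted p = 5.85e-05) against serum-free medium (0.81 in replicates 1 to 4 and 0.64 in replicates 5 to 8), and TGF-β1 gave -0.61 (SE 0.14, adjusted p = 0.000330) against FBS. TGF-β1 against serum-free medium gave 0.09 (SE 0.14, adjusted p = 0.601), with 0.34 in replicates 1 to 4 and -0.09 in replicates 5 to 8, and it was -0.06 with total-count scaling. In every condition, all of replicates 5 to 8 lay above all of replicates 1 to 4.

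TNFRSF1B encodes TNFR2, which lacks a death domain. It was at 1.10 to 2.43 CPM (median 1.34) with TGF-β1, 4.52 to 13.7 CPM (median 6.57) with FBS and 4.15 to 13.4 CPM (median 7.36) in serum-free medium. TGF-β1 libraries lay below all others, and FBS and serum-free libraries overlapped. The log2 fold change was -2.48 (SE 0.30, adjusted p = 7.94e-08) for TGF-β1 against serum-free medium (-1.78 in replicates 1 to 4 and -2.85 in replicates 5 to 8) and -2.43 (SE 0.30, adjusted p = 6.28e-08) against FBS. For FBS over serum-free medium the log2 fold change was -0.05 (SE 0.27, adjusted p = 0.875), with 0.37 in replicates 1 to 4 and -0.23 in replicates 5 to 8, and its sign depended on the setting. TNFRSF8 lies 35.5 kb from TNFRSF1B on the same strand of the unplaced sequence Un0041.

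TNFRSF8 encodes CD30, a receptor known from activated lymphocytes. It was at 0.520 to 2.41 CPM (median 0.993) with TGF-β1, 0.345 to 1.37 CPM (median 0.622) with FBS and 2.85 to 6.48 CPM (median 5.58) in serum-free medium. All serum-free libraries were above all others, and TGF-β1 and FBS overlapped. It fell with TGF-β1 (log2 fold change -2.16, SE 0.28, adjusted p = 1.59e-07) and with FBS (log2 fold change -2.84, SE 0.28, adjusted p = 7.17e-10). TGF-β1 against FBS gave 0.68 (SE 0.29, adjusted p = 0.0384), with 1.32 in replicates 1 to 4 and 0.01 in replicates 5 to 8; the replicate block gave an adjusted p of 0.0620. Leaving out TGF-β1 replicate 1 or 3 or FBS replicate 1, 2, 3, 4, 6 or 7 also ended that call, with adjusted p-values of 0.0593 to 0.155.

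The RANK axis, best known from bone, moved in opposite directions for receptor and decoy with TGF-β1. TNFRSF11A, which encodes RANK, was at 9.85 to 18.8 CPM (median 12.5) with TGF-β1, 3.13 to 4.83 CPM (median 4.15) with FBS and 57.8 to 76.5 CPM (median 70.7) in serum-free medium. The 3 conditions did not overlap, with serum-free medium highest and FBS lowest. The log2 fold change was -2.39 (SE 0.12, adjusted p = 5.01e-15) with TGF-β1, -4.08 (SE 0.14, adjusted p = 1.30e-19) with FBS and 1.69 (SE 0.13, adjusted p = 5.01e-12) for TGF-β1 against FBS.

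TNFRSF11B encodes osteoprotegerin, the secreted decoy receptor of RANKL. It was at 77.2 to 169.8 CPM (median 122) with TGF-β1, 1.23 to 3.55 CPM (median 2.41) with FBS and 16.4 to 41.5 CPM (median 23.8) in serum-free medium. Again no ranges overlapped, but TGF-β1 was highest and FBS lowest. TNFRSF11B rose with TGF-β1 (log2 fold change 2.21, SE 0.22, adjusted p = 2.32e-09; 1.32 in replicates 1 to 4 and 3.07 in replicates 5 to 8) and fell with FBS (log2 fold change -3.49, SE 0.25, adjusted p = 1.08e-12; -3.87 in replicates 1 to 4 and -2.96 in replicates 5 to 8), and TGF-β1 against FBS gave 5.70 (SE 0.27, adjusted p = 2.87e-16). The ratio of TNFRSF11B to TNFRSF11A in deposited FPKM had a median of 18.1 with TGF-β1 (8.17 to 30.7), 1.11 with FBS (0.467 to 1.53) and 0.727 in serum-free medium (0.414 to 0.993). The TGF-β1 ratios fell into the sets of replicates, at 8.17 to 10.9 in replicates 1 to 4 and 25.2 to 30.7 in replicates 5 to 8, with no library between 10.9 and 25.2. TNFRSF11B lies on chromosome 3 at 134828524 to 134858054 and TNFRSF11A on chromosome 9 at 102636620 to 102697226. TNFSF11, the ligand of both, had at most 43 counts in a condition, as given above.

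TNFRSF19, TNFRSF21 and TNFRSF25 encode the receptors TROY, DR6 and DR3. TNFRSF19 was at 24.8 to 54.3 CPM (median 39.4) with TGF-β1, 6.28 to 9.25 CPM (median 7.54) with FBS and 151 to 171 CPM (median 158) in serum-free medium. The conditions did not overlap, and it fell with TGF-β1 (log2 fold change -2.02, SE 0.16, adjusted p = 1.93e-11) and with FBS (log2 fold change -4.39, SE 0.18, adjusted p = 6.62e-18), with 2.38 (SE 0.17, adjusted p = 8.08e-13) for TGF-β1 against FBS. TNFRSF21 was at 12.4 to 19.0 CPM (median 14.6) with TGF-β1, 28.3 to 49.2 CPM (median 35.5) with FBS and 5.18 to 7.92 CPM (median 7.04) in serum-free medium. Its order was the reverse, with FBS highest and serum-free medium lowest and no overlap: 1.14 (SE 0.12, adjusted p = 1.14e-08) with TGF-β1, 2.44 (SE 0.13, adjusted p = 1.30e-15) with FBS and -1.30 (SE 0.12, adjusted p = 2.82e-10) for TGF-β1 against FBS. TNFRSF25 was at 13.6 to 24.7 CPM (median 20.0) with TGF-β1, 1.77 to 7.82 CPM (median 3.04) with FBS and 6.93 to 15.3 CPM (median 9.76) in serum-free medium. TGF-β1 lay above FBS without overlap, while the other ranges overlapped. It rose with TGF-β1 (log2 fold change 0.94, SE 0.24, adjusted p = 0.00120; 1.38 in replicates 1 to 4 and 0.62 in replicates 5 to 8) and fell with FBS (log2 fold change -1.44, SE 0.25, adjusted p = 8.63e-06; -1.64 in replicates 1 to 4 and -1.32 in replicates 5 to 8), and TGF-β1 against FBS gave 2.38 (SE 0.25, adjusted p = 3.45e-09), with 3.02 in replicates 1 to 4 and 1.94 in replicates 5 to 8.

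**Figure D3:**
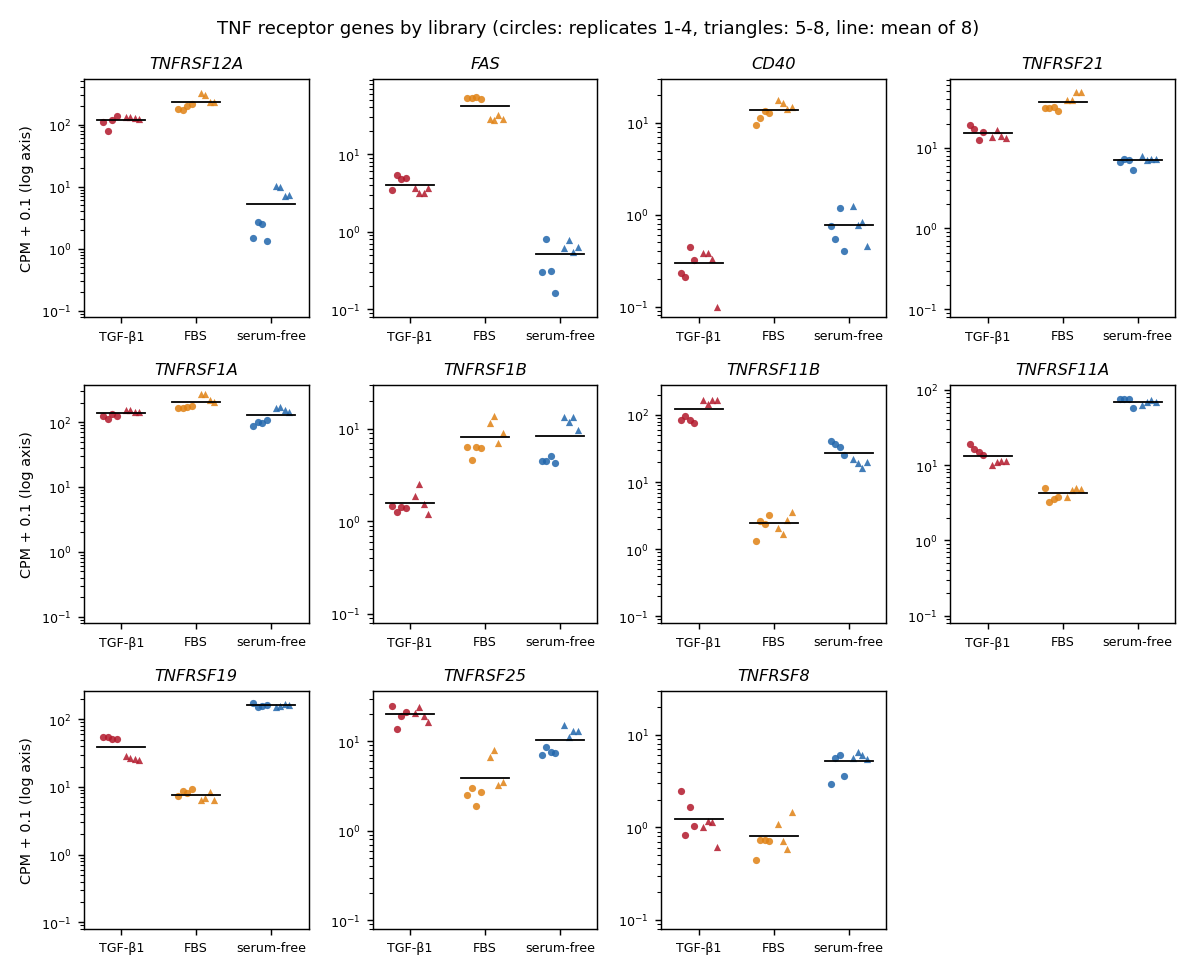
Levels of the tested receptor genes in every library, as CPM + 0.1 on a log axis, by condition in the order TGF-β1, FBS and serum-free; circles are replicates 1 to 4, triangles replicates 5 to 8 and lines the mean of 8. TNFRSF11B is highest with TGF-β1 (median 122 CPM), while FAS (41.9 CPM) and CD40 (13.7 CPM) are highest with FBS.

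The remaining receptors were not tested. TNFRSF9, TNFRSF17, TNFRSF13B and TNFRSF13C, known from lymphocytes, had medians of at most 0.245 CPM in each condition. TNFRSF13C had 0 counts with TGF-β1, 13 with FBS and 7 in serum-free medium.

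Of the 3 adaptors, TRAF1 fell in both treatments. TRAF1 encodes an adaptor without a RING domain and was at 6.71 to 11.2 CPM (median 9.33) with TGF-β1, 5.49 to 7.79 CPM (median 6.51) with FBS and 18.6 to 22.6 CPM (median 21.0) in serum-free medium. Serum-free libraries were above all others, and TGF-β1 and FBS libraries overlapped. The log2 fold change was -1.23 (SE 0.10, adjusted p = 2.39e-11) with TGF-β1 and -1.66 (SE 0.10, adjusted p = 2.00e-14) with FBS. Between TGF-β1 and FBS the log2 fold change was 0.43 (SE 0.10, adjusted p = 0.000372), with 0.17 in replicates 1 to 4 and 0.67 in replicates 5 to 8, and 0.03 (adjusted p = 0.823) with total-count scaling. TRAF3, whose product restrains the non-canonical NF-κB pathway, was at 40.0 to 44.8 CPM (median 40.9) with TGF-β1, 35.8 to 55.1 CPM (median 48.1) with FBS and 25.3 to 37.0 CPM (median 31.1) in serum-free medium. The TGF-β1 libraries lay above the serum-free libraries, and the FBS range overlapped both. It rose with TGF-β1 (log2 fold change 0.40, SE 0.09, adjusted p = 0.000429) and with FBS (log2 fold change 0.57, SE 0.09, adjusted p = 2.80e-06). TGF-β1 against FBS gave -0.17 (SE 0.09, adjusted p = 0.0977), with -0.36 in replicates 1 to 4 and 0.04 in replicates 5 to 8. It was called in replicates 1 to 4 alone, with total-count scaling (-0.57, adjusted p = 1.9e-06), without FBS replicate 5 (adjusted p = 0.0252) and without FBS replicates 5 and 6 (adjusted p = 0.00635). TRAF3 overlaps CDC42BPB on the other strand, which averaged 249.6 ± 12.4 CPM with TGF-β1, 276 ± 44.5 CPM with FBS and 196 ± 23.2 CPM in serum-free medium. CDC42BPB gave log2 fold changes near those of TRAF3: 0.35 with TGF-β1, 0.49 with FBS and -0.15 for TGF-β1 against FBS. Without strand, reads of TRAF3 and CDC42BPB cannot be told apart where the genes overlap, and the part of CDC42BPB in these changes was not tested.

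BIRC3 encodes cIAP2, a ubiquitin ligase of TNF receptor complexes and a known NF-κB target. It was at 2.04 to 6.70 CPM (median 3.20) with TGF-β1, 23.4 to 45.1 CPM (median 35.2) with FBS and 0.244 to 4.43 CPM (median 1.40) in serum-free medium. FBS libraries stood above all others, and TGF-β1 and serum-free libraries overlapped. BIRC3 rose with FBS (log2 fold change 4.13, SE 0.43, adjusted p = 1.85e-09; 6.48 in replicates 1 to 4 and 3.11 in replicates 5 to 8) and was lower with TGF-β1 than with FBS (log2 fold change -3.20, SE 0.41, adjusted p = 9.24e-08; -4.03 in replicates 1 to 4 and -2.56 in replicates 5 to 8). TGF-β1 against serum-free medium gave 0.93 (SE 0.43, adjusted p = 0.0603), with 2.45 in replicates 1 to 4 and 0.55 in replicates 5 to 8; the replicate block gave an adjusted p of 0.0389. Leaving out serum-free replicate 5, 6 or 7 or TGF-β1 replicate 2 or 4 also made it a call, with adjusted p-values of 0.0196 to 0.0468. Its serum-free levels were 0.244 to 0.849 CPM in replicates 1 to 4 and 1.94 to 4.43 CPM in replicates 5 to 8. GNG10 overlaps it on the same strand and averaged 199.8 ± 31.0 CPM with TGF-β1, 153 ± 14.9 CPM with FBS and 180 ± 33.0 CPM in serum-free medium.

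All 4 NF-κB genes passed the test with TGF-β1, 3 higher and 1 lower than in serum-free medium (beside 64.3% of all genes called), and 2 rose with FBS (beside 39.5% of all genes called higher). RELB encodes the Rel partner of p52, the NFKB2 product. RELB was at 5.94 to 21.4 CPM (median 14.2) with TGF-β1, 3.57 to 10.3 CPM (median 5.82) with FBS and 1.17 to 6.51 CPM (median 3.56) in serum-free medium. The ranges overlapped in every pair of conditions, but in no pair within replicates 1 to 4 or within replicates 5 to 8. RELB rose with TGF-β1 (log2 fold change 1.87, SE 0.33, adjusted p = 1.93e-05; 2.04 in replicates 1 to 4 and 1.81 in replicates 5 to 8) and TGF-β1 against FBS gave 1.10 (SE 0.32, adjusted p = 0.00300). FBS against serum-free medium gave 0.77 (SE 0.33, adjusted p = 0.0328), a call lost without serum-free replicate 1, 2, 3 or 4 or FBS replicate 5 or 6 (adjusted p-values of 0.0540 to 0.0722), and at 0.185 without both of those FBS libraries. RELB was called higher with FBS in replicates 1 to 4 alone (1.10, adjusted p = 0.000938) and in replicates 5 to 8 alone (0.64, adjusted p = 0.00527). With the replicate block the adjusted p was 0.000298. NFKB2 was at 34.1 to 65.5 CPM (median 52.2) with TGF-β1, 26.5 to 55.0 CPM (median 34.1) with FBS and 17.9 to 35.5 CPM (median 25.7) in serum-free medium. Its ranges also overlapped in every pair. It gave 0.95 (SE 0.18, adjusted p = 6.65e-05) with TGF-β1 and 0.52 (SE 0.18, adjusted p = 0.0114) with FBS, the second at 0.31 and not called without FBS replicates 5 and 6. The difference of TGF-β1 from FBS was 0.43 (SE 0.18, adjusted p = 0.0356), lost without any of TGF-β1 replicates 5 to 8 or FBS replicates 1 to 4 (adjusted p-values of 0.0691 to 0.0789) and at 0.04 with total-count scaling. It was called in replicates 1 to 4 alone (0.45, adjusted p = 0.00120), in replicates 5 to 8 alone (0.41, adjusted p = 0.00698) and with the replicate block (adjusted p = 3.02e-05).

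NFKB1 encodes p105, the precursor of p50. It was at 28.8 to 50.2 CPM (median 39.9) with TGF-β1, 25.7 to 34.4 CPM (median 28.6) with FBS and 22.0 to 32.7 CPM (median 29.3) in serum-free medium. All 3 ranges overlapped. TGF-β1 gave 0.53 (SE 0.11, adjusted p = 0.000177) against serum-free medium and 0.45 (SE 0.11, adjusted p = 0.000827) against FBS, the second at 0.05 and not called with total-count scaling. For FBS over serum-free medium the log2 fold change was 0.09 (SE 0.11, adjusted p = 0.486), and it was called with total-count scaling (0.34, adjusted p = 0.0127). NFKBIA, which encodes the inhibitor IκBα and is itself a known NF-κB target, was at 9.19 to 26.6 CPM (median 18.1) with TGF-β1, 17.5 to 36.1 CPM (median 24.4) with FBS and 19.5 to 38.8 CPM (median 29.3) in serum-free medium. These ranges overlapped too. NFKBIA fell with TGF-β1 (log2 fold change -0.77, SE 0.22, adjusted p = 0.00335; -0.89 in replicates 1 to 4 and -0.69 in replicates 5 to 8). FBS against serum-free medium gave -0.25 (SE 0.21, adjusted p = 0.280), and an adjusted p of 0.0341 with the replicate block. TGF-β1 against FBS gave -0.51 (SE 0.22, adjusted p = 0.0357), lost without TGF-β1 replicate 1, 2, 3 or 4 or FBS replicate 5, 6 or 8 (adjusted p-values of 0.0524 to 0.0826). Without both FBS replicates 5 and 6 the adjusted p was 0.184. This difference was called in replicates 1 to 4 alone (-0.72, adjusted p = 0.000171), in replicates 5 to 8 alone (-0.40, adjusted p = 0.00464) and with the replicate block (adjusted p = 7.42e-05).

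NFKBIA, RELB and TNFRSF1A were the members with all of replicates 5 to 8 above all of replicates 1 to 4 in all 3 conditions, 3 of 26 (11.5%) beside 4.57% of all genes. No member had the opposite pattern, which 3.90% of all genes had. RELB, for example, was at 5.94 to 11.4 CPM in TGF-β1 replicates 1 to 4 and 16.9 to 21.4 CPM in TGF-β1 replicates 5 to 8. What the replicate numbers stand for is not in the labels.

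TNFAIP6 had the largest rise of the TNFAIP genes. It encodes a secreted hyaluronan-binding protein of inflamed tissue, and lies on chromosome 7 at 90349588 to 90368345, plus strand. TNFAIP6 was at 46.2 to 213 CPM (median 123) with TGF-β1, 4.43 to 10.6 CPM (median 6.64) with FBS and 4.48 to 8.97 CPM (median 6.29) in serum-free medium. TGF-β1 libraries lay above all others, and FBS and serum-free libraries overlapped. Within TGF-β1 it was at 46.2 to 56.9 CPM in replicates 1 to 4 and 189 to 213 CPM in replicates 5 to 8. TGF-β1 gave 4.33 (SE 0.36, adjusted p = 7.86e-11) against serum-free medium (2.96 in replicates 1 to 4 and 5.11 in replicates 5 to 8) and 4.18 (SE 0.36, adjusted p = 6.40e-11) against FBS (3.52 in replicates 1 to 4 and 4.40 in replicates 5 to 8). For FBS over serum-free medium the log2 fold change was 0.15 (SE 0.34, adjusted p = 0.688), with -0.56 in replicates 1 to 4 and 0.71 in replicates 5 to 8. Each set passed the test alone, with opposite signs (adjusted p = 0.00157 and 0.000368). Per length, TNFAIP6 was second among the members with TGF-β1, at 91.9 ± 58.3 FPKM.

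TNFAIP3 encodes A20, the ubiquitin-editing enzyme that ends NF-κB signalling. It was at 4.30 to 18.9 CPM (median 9.92) with TGF-β1, 4.07 to 10.1 CPM (median 7.56) with FBS and 15.6 to 30.2 CPM (median 22.7) in serum-free medium. Serum-free libraries were above the FBS libraries and overlapped the TGF-β1 libraries. It fell with TGF-β1 (log2 fold change -1.08, SE 0.27, adjusted p = 0.00126; -1.78 in replicates 1 to 4 and -0.74 in replicates 5 to 8) and with FBS (log2 fold change -1.57, SE 0.28, adjusted p = 1.16e-05). For TGF-β1 over FBS it was 0.49 (SE 0.28, adjusted p = 0.116), with -0.30 in replicates 1 to 4 and 0.87 in replicates 5 to 8; without TGF-β1 replicate 3 or 4 it was called (adjusted p-values of 0.0493 and 0.0468). TNFAIP1, an adaptor of a cullin ubiquitin ligase, was at 105 to 147 CPM (median 129.5) with TGF-β1, 49.7 to 58.7 CPM (median 53.0) with FBS and 72.7 to 82.3 CPM (median 76.7) in serum-free medium. No ranges overlapped, and it rose with TGF-β1 (log2 fold change 0.73, SE 0.07, adjusted p = 9.06e-10) and fell with FBS (log2 fold change -0.53, SE 0.07, adjusted p = 1.31e-07), with 1.26 (SE 0.07, adjusted p = 1.05e-14) for TGF-β1 against FBS.

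TNFAIP8 and TNFAIP8L3 belong to a family of lipid-binding proteins. TNFAIP8 was at 5.38 to 7.98 CPM (median 7.38) with TGF-β1, 12.1 to 16.7 CPM (median 13.8) with FBS and 10.1 to 17.6 CPM (median 14.6) in serum-free medium. TGF-β1 libraries lay below all others, and FBS and serum-free libraries overlapped. It was lower with TGF-β1, both against serum-free medium (log2 fold change -1.07, SE 0.12, adjusted p = 1.08e-08) and against FBS (log2 fold change -1.01, SE 0.12, adjusted p = 1.71e-08). FBS against serum-free medium gave -0.06 (SE 0.11, adjusted p = 0.621), with -0.27 in replicates 1 to 4 and 0.20 in replicates 5 to 8, and 0.20 with total-count scaling. TNFAIP8L3 was at 13.0 to 22.2 CPM (median 17.4) with TGF-β1, 17.2 to 20.7 CPM (median 18.1) with FBS and 31.8 to 54.2 CPM (median 41.2) in serum-free medium. Serum-free libraries lay above all others, and TGF-β1 and FBS libraries overlapped. It gave -1.27 (SE 0.11, adjusted p = 2.37e-10) with TGF-β1 and -1.19 (SE 0.11, adjusted p = 2.96e-10) with FBS, and -0.09 (SE 0.11, adjusted p = 0.504) for TGF-β1 against FBS. That last difference was called with total-count scaling (-0.49, adjusted p = 0.000173) and in replicates 5 to 8 alone (-0.36, adjusted p = 0.0147). TNFAIP8L2 was not tested, with medians of at most 0.384 CPM.

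**Figure D4:**
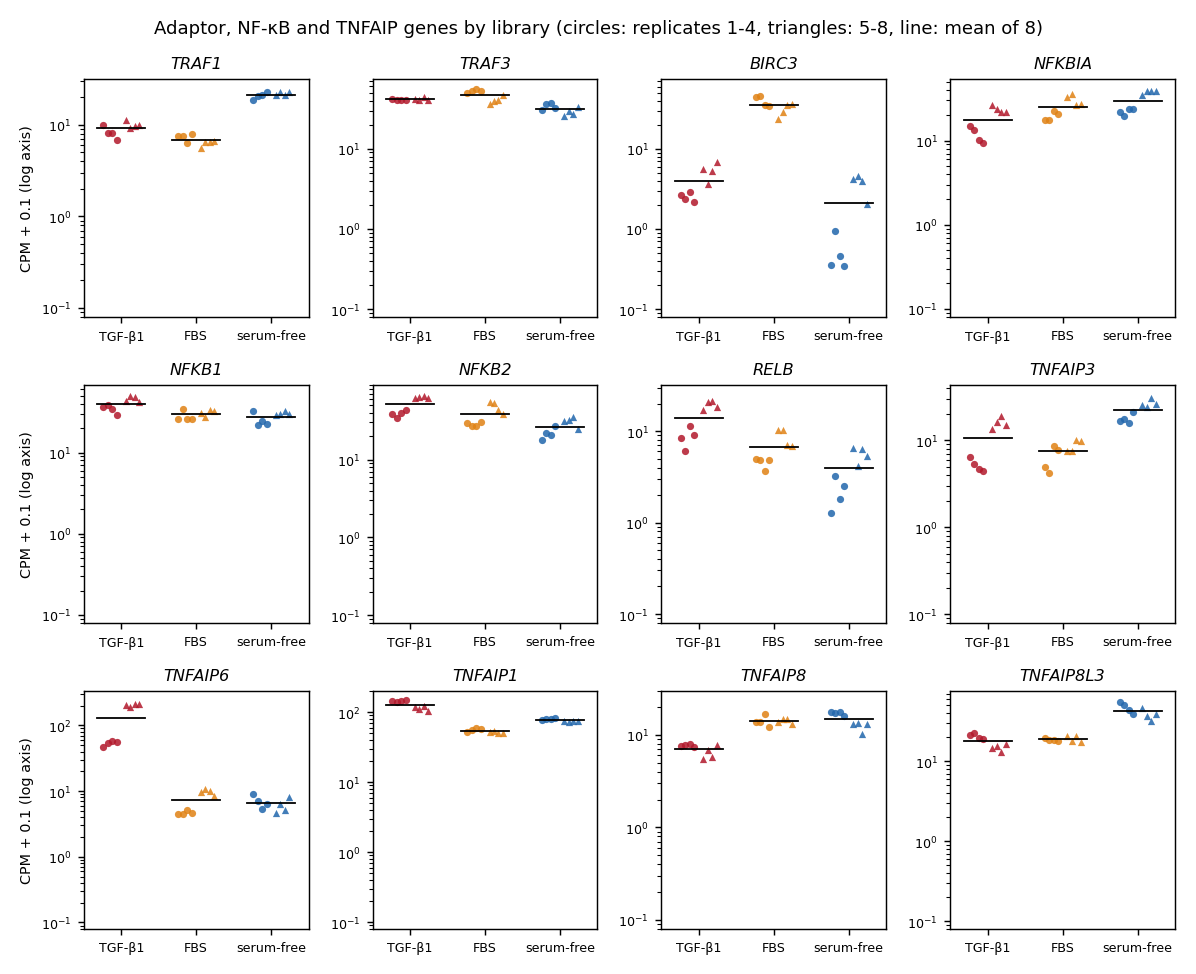
Levels of adaptor, NF-κB and TNFAIP genes in every library, as CPM + 0.1 on a log axis, by condition in the order TGF-β1, FBS and serum-free; circles are replicates 1 to 4, triangles replicates 5 to 8 and lines the mean of 8. BIRC3 is highest with FBS (median 35.2 CPM) and TNFAIP6 with TGF-β1 (median 123 CPM), where replicates 5 to 8 lie above replicates 1 to 4.

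Other genes of the pathway were read from lists by function, with log2 fold changes in brackets, and the medians over all genes were -0.0304 with TGF-β1, -0.0418 with FBS and 0.00692 for TGF-β1 against FBS. The counts of each list stand beside 31.2% of all genes called higher and 33.1% called lower with TGF-β1, and 39.5% and 40.5% with FBS. Of 24 tested adaptor and kinase genes, 8 rose and 6 fell with TGF-β1 (median log2 fold change 0.0532), and 10 rose and 7 fell with FBS (median 0.0582). TAB1 (-0.95 with TGF-β1, -0.70 with FBS), an adaptor of the kinase TAK1, fell in both treatments. So did MAP3K14 (-0.89 and -0.60), which encodes the kinase NIK, RNF31 (-0.86 and -0.89) and XIAP (-0.64 and -0.91). TRAF5 fell with TGF-β1 (-0.79) and was not called with FBS (0.07). TNIP1 (0.74 and 1.23), an A20-binding protein, and CHUK (0.34 and 1.09), which encodes IKKα, rose in both. MAP3K7 (0.49 and 0.91), which encodes TAK1, rose in both as well. Superfamily genes with other names numbered 5 tested: 2 rose and 2 fell with TGF-β1, and 2 rose and 3 fell with FBS. EDA, the ectodysplasin ligand, fell (-2.24 with TGF-β1, -2.73 with FBS), as did the neurotrophin receptor NGFR (-1.91 and -2.34), and the ectodysplasin receptor EDA2R rose (1.95 and 2.21, the second 2.82 in replicates 1 to 4 and 1.42 in replicates 5 to 8). LTBR, the lymphotoxin receptor, fell with FBS (-0.34), a call that total-count scaling removed.

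The 6 other Rel and IκB genes, of which 3 rose and 1 fell with TGF-β1 and 4 rose and 2 fell with FBS, had median log2 fold changes of 0.318 with TGF-β1 and 0.973 with FBS. NFKBIB rose (0.63 with TGF-β1, 0.95 with FBS), and so did NFKBIE (0.61 and 1.02), although with TGF-β1 its call was lost with total-count scaling. BCL3, a nuclear IκB protein, rose with FBS to 8.26 ± 5.60 CPM, against 0.564 ± 0.569 CPM in serum-free medium (3.85, SE 0.53, and 4.86 in replicates 1 to 4 alone). It also rose with TGF-β1, to 1.68 ± 0.542 CPM (1.55). NFKBIZ rose with FBS (0.99) and is also in the target list.

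Of 13 tested genes of the death branch, 6 rose and 3 fell with TGF-β1 (median 0.279), beside 64.3% of all genes called, and 7 rose and 4 fell with FBS (median 0.606), beside 80.0%. BCL2, the anti-apoptotic protein, rose with TGF-β1 (2.59) and was not called with FBS (0.42). BID fell in both treatments (-1.02 with TGF-β1, -0.59 with FBS). BAX (1.07 with TGF-β1, 0.73 with FBS), BCL2L1 (0.95 and 0.64) and MCL1 (0.75 and 0.84) rose in both treatments. The initiator caspase gene CASP8 fell with TGF-β1 (-1.24) and rose with FBS (2.38). Its level was low, at 0.922 ± 0.379 CPM with TGF-β1, 11.4 ± 1.21 CPM with FBS and 2.18 ± 0.359 CPM in serum-free medium. With FBS the initiator caspase gene CASP10 (2.25) also rose, and it was not called with TGF-β1 (-0.22). CFLAR, the caspase-8 inhibitor c-FLIP, fell in both treatments (-0.35 with TGF-β1, -1.67 with FBS). Among the 5 genes of ligand and receptor shedding, 4 rose with TGF-β1 and none fell, and 4 rose and 1 fell with FBS (medians 0.688 and 1.37). These were TIMP3 (1.41 with TGF-β1, 1.79 with FBS), an inhibitor of the sheddase ADAM17, RHBDF2 (0.92 and 1.74), ADAM10 (0.69 and 1.37) and ADAM17 (0.63 and 0.94).

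Among known NF-κB target genes, the chemokines CCL2 and CXCL8 were lower with TGF-β1 than with FBS, while LIF, ICAM1, PTGS2 and IL6 rose in both treatments. Of 14 tested, 5 rose and 6 fell with TGF-β1 (median -0.307), and 11 rose and 3 fell with FBS (median 1.47), beside 31.2% of all genes called higher and 33.1% lower with TGF-β1 and 39.5% and 40.5% with FBS. In TGF-β1 against FBS, 2 were higher and 8 lower (median -0.795), beside 36.9% and 36.4% of all genes. LIF, a cytokine of the interleukin-6 family, rose to 55.2 ± 8.87 CPM with TGF-β1 and 24.7 ± 6.86 CPM with FBS, against 1.63 ± 1.12 CPM in serum-free medium (5.08, SE 0.27, and 3.92, SE 0.26, the first 5.72 in replicates 1 to 4 alone). ICAM1, an adhesion receptor for leukocytes, rose to 155 ± 59.0 CPM with TGF-β1 and 167 ± 48.2 CPM with FBS, against 11.8 ± 6.64 CPM in serum-free medium (3.71 and 3.82). PTGS2, the inducible cyclooxygenase, also rose in both (2.98 with TGF-β1 and 3.83 with FBS, the second 3.20 in replicates 5 to 8 alone), and so did IL6, to 2.62 ± 0.557 CPM with TGF-β1 and 5.70 ± 4.18 CPM with FBS, against 0.163 ± 0.141 CPM in serum-free medium (3.96 and 5.08, the second 3.56 in replicates 1 to 4 and 5.90 in replicates 5 to 8). The monocyte chemokine CCL2 fell with TGF-β1 to 11.8 ± 4.61 CPM, with 409 ± 102 CPM in FBS and 107 ± 8.60 CPM in serum-free medium (-3.18 against serum-free medium and -5.12 against FBS, adjusted p = 9.72e-17). CXCL8, the neutrophil chemokine, was lower with TGF-β1 than with FBS (-3.29, adjusted p = 6.64e-10), and so was the stress-response gene IER3 (-1.57, adjusted p = 4.79e-08).

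**Figure D5:**
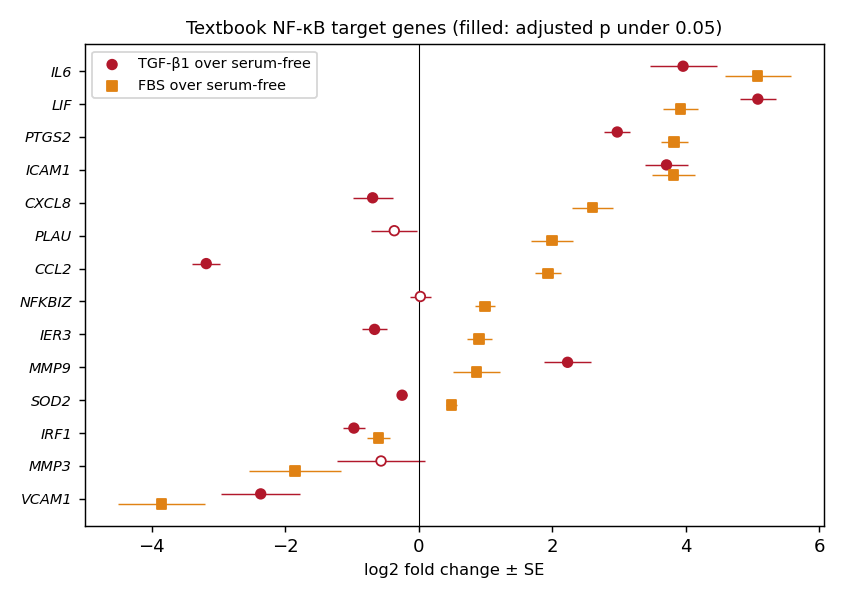
Log2 fold change (x axis, ± SE) of known NF-κB target genes with TGF-β1 and with FBS, each against serum-free medium. Of the 14 genes tested, 11 lie to the right of 0 and were called higher with FBS, while 5 were called higher and 6 lower with TGF-β1, CCL2 at -3.18 among them.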

How the data were processed

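Per the file headers, the authors deposited a table of raw counts per gene and library. Their deposited FPKM values are those counts divided by gene length and a scaled library size, as their ratio shows; they served for levels between genes and as an alternative. The aligner, counting program, strand setting and genome build were not given in the sources used here. No genome or sequence of this build was used, so no sequences are shown.

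The test was that of edgeR 4.0.16 in R 4.3.3: filterByExpr by condition, TMM scaling, 1 fit of all 24 libraries, the quasi-likelihood F-test and Benjamini-Hochberg adjustment over 13308 genes. A gene was called at an adjusted p under 0.05, and called at least 2-fold where the log2 fold change was also 1 or more in size. Log2 fold changes, SE and adjusted p-values in the text come from that fit unless another is named. CPM use TMM sizes. Alternatives used DESeq2 1.42.0, limma 3.58.1 on log2(FPKM + 1), other scaling, filters and sets of libraries, and leaving out each library. Replicates 1 to 4 and 5 to 8 were also fitted separately. In a simulation of TGF-β1 against serum-free medium over 13308 genes, 85% of 100 genes changed by log2 1 and 99% of 100 changed by log2 2 were recovered, and 5.15% of calls were false. The simulated libraries were independent, with no shared difference between replicates 1 to 4 and 5 to 8. Far fewer genes changed in them than were called here, so these rates need not hold for the real libraries.

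Same-numbered libraries deviated together (correlation of residuals 0.200 to 0.436, 0.136 to 0.509 and 0.135 to 0.405 in TGF-β1 and serum-free, FBS and serum-free, and TGF-β1 and FBS libraries), so the replicate number was used as a block in an alternative. The pairing rests on these correlations alone, and of 16 libraries in each pair of conditions 6, 7 and 6 correlated best with the library of the same number. The difference between the sets of replicates, seen in every condition on the principal components, can also make same-numbered libraries correlate. Correlations of differently numbered libraries of the same set are not given here. Whether libraries pair by number beyond their set was therefore not tested. No libraries were duplicates: within a condition, squared differences were at least 2.80 times the counting variance per gene.

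The members and lists were chosen with earlier results of these data known. Values of the libraries are given for every member called at least 2-fold in any comparison whose mean reached 1 CPM in the highest condition, and for a fixed set of TNF, receptor, TRAF and NF-κB genes. From the other lists, called genes with the largest change and a mean of at least 5 CPM are named. ACTA2 and the genes overlapping a member are outside this rule and were chosen by position.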

Additional observations from a re-analysis of the deposited data

Results flagged for a closer look

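In 2 of the 78 groups of 8 libraries examined (26 genes in 3 conditions), 1 library lay farther from its nearest neighbour, as a share of the group's range, than Dixon's 95% critical value allows. That criterion marks about 1 in 20 groups by chance, so 2 of 78 is no more than chance gives. TNFRSF12A was at 79.6 CPM in TGF-β1 replicate 2, and the next lowest TGF-β1 library was at 111.8 CPM, a gap of 0.541 of the whole range. TRAF3 was at 44.76 CPM in TGF-β1 replicate 7, and the next highest TGF-β1 library was at 42.03 CPM, a gap of 0.578 of the range. Leaving out either library changed neither gene's call in any comparison.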

How the results depend on the processing

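The numbers of members called stayed within 1.5 times of the reported ones under every alternative run: 23 to 27 for TGF-β1 against serum-free medium, 19 to 26 for FBS against serum-free medium and 19 to 24 for TGF-β1 against FBS, and 18, 16 and 15 with a 2-fold threshold. Leaving out 1 library gave 24 to 25, 20 to 21 and 20 to 23. The replicate block gave 25, 22 and 21: paired by number, BIRC3 (TGF-β1) and NFKBIA (FBS) became calls and TNFRSF8 (TGF-β1 against FBS) lost its call, and no other call of a member changed. Over 133 fold changes of named genes, 4555 of 4654 alternative values kept direction and side of the threshold, 46 lost the call, 28 gained it and 25 turned sign, all of these in fold changes that had not been called. Against serum-free medium, TNFRSF1A with TGF-β1 became -0.065 with total-count scaling and -0.094 in replicates 5 to 8. TNFAIP6 with FBS became -0.56 in replicates 1 to 4, -0.0021 with the set as a covariate and -0.053 without FBS replicates 5 and 6. TNFAIP8 with FBS became 0.20 both with total-count scaling and in replicates 5 to 8. TNFRSF1B with FBS became 0.18 with total-count scaling, 0.37 in replicates 1 to 4, 0.035 with the set as a covariate, 0.012 both without the filter and with limma, 0.015 with the replicate block, and -0.19 to 0.12 on leaving out 1 library. In TGF-β1 against FBS, TNFSF12 became -0.21 with total-count scaling and -0.22 in replicates 5 to 8, TRAF3 0.042 in replicates 5 to 8, TNFAIP8L3 0.15 and TNFAIP3 -0.30 in replicates 1 to 4. The causes were not tested. Limma on log2(FPKM + 1) gave smaller folds for low genes by construction, CD40 at -2.76 in TGF-β1 against FBS among them. Depth limits the 14 untested genes, of which 10 had under 50 counts in all. A planned search for κB motifs in promoters was not run.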

Other observations

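Per length, in deposited FPKM (mean ± SD, n = 8), different members led in each condition. With TGF-β1 the highest were TNFRSF12A at 151 ± 23.9, TNFAIP6 at 91.9 ± 58.3, TNFRSF11B at 58.4 ± 20.0 and TNFRSF1A at 48.3 ± 5.34 FPKM, and the spread of TNFAIP6 reached that of both neighbours in this order. With FBS they were TNFRSF12A at 286 ± 66.5, TNFRSF1A at 73.4 ± 15.2, NFKBIA at 16.2 ± 4.37, NFKB2 at 14.2 ± 4.27 and FAS at 13.7 ± 4.28 FPKM, of which the last 3 lay within their spread. In serum-free medium they were TNFRSF1A at 45.2 ± 11.4, TNFRSF19 at 33.8 ± 1.56, TNFAIP8L3 at 23.04 ± 4.22 and the TWEAK gene TNFSF12 at 21.6 ± 2.05 FPKM. Summed over the 12 ligands, FPKM per library was 15.6 to 30.8 with TGF-β1, 11.9 to 20.4 with FBS and 33.2 to 40.5 in serum-free medium, so the serum-free libraries lay above all others.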
